A study of Homo sapiens with 3 samples.

Results

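The genes described here are 10 components of the Notch pathway and its intestinal output, measured in HT29, an established cell line from a human colon adenocarcinoma. They are the receptors NOTCH1, NOTCH2 and NOTCH3, the ligands JAG1, JAG2, DLL1 and DLL4, the target genes HES1 and HEY1, and ATOH1. They were taken by name, as every probe that was not a control and whose accession carried the symbol of a member, which gave 12 probes for 10 of the 21614 genes that the arrays could name. NOTCH1 and NOTCH2 had 2 probes each and the other 8 genes had 1 probe. The study asked how the surface under the cells changes the expression of cancer stem cell and signaling genes. HT29 cells were grown on tissue culture polystyrene (TCP), on membranes of chitosan (CS), a polysaccharide made from chitin, or on chitosan membranes grafted with hyaluronan (CSHA), a polysaccharide of the extracellular matrix. All groups held the same unmodified cell line and differed in the substrate. The time in culture before the RNA for the arrays was taken is not given in the sources used here. RNA of each group was hybridized to 1 single-colour array, so no difference below has a replicate check, no test was possible and no p-value is given.

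Notch signaling passes between cells in contact. A Jagged or Delta-like ligand on a cell binds a Notch receptor on its neighbour, proteases of the ADAM family and the gamma-secretase complex cut the receptor, and its inner part enters the nucleus, where it joins the DNA-binding protein RBPJ and switches on genes of the HES and HEY families. In the intestinal crypt, the repressor HES1 holds down ATOH1, the transcription factor that commits a cell to the secretory lineage of goblet, Paneth and enteroendocrine cells, so that cells with active Notch take the absorptive fate or remain progenitors.

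The bases upstream of HES1, a known target of RBPJ, are printed with exact copies of the RBPJ core motif marked. HES4, another HES gene with a clear signal on the arrays, is printed beside it because on CSHA it differed from TCP in the opposite direction. On CS both were lower than on TCP. HES4 was chosen after its values were seen. Both are the 250 bases before the annotated start in RefSeq (GRCh38.p14, chr3:194135898-194136147 on the plus strand for HES1 and chr1:1000098-1000347 on the minus strand for HES4), written 5′ to 3′ along the gene with the core of the RBPJ motif, TGGGAA, in capitals.
HES1: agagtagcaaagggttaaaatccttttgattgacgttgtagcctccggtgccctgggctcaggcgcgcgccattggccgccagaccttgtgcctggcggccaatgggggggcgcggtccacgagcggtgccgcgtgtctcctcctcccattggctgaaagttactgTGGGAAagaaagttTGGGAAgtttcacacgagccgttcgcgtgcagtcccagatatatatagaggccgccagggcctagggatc
HES4: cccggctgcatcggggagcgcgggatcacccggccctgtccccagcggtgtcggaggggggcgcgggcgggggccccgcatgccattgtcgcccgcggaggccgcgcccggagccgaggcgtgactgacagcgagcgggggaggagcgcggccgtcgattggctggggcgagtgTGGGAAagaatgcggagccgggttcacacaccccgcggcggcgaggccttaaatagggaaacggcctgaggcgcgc
HES1 held 2 copies of TGGGAA, which began 84 and 70 bases before the start, and HES4 held 1 copy, which began 76 bases before it. The motif was searched on both strands, as was its longer form GTGGGAA, which contains it. Among all 35116 promoter windows of this length, 20.8% held TGGGAA, 2.90% held at least 2 copies and 5.43% held GTGGGAA. Promoters were given for 8 of the 10 members, and HES1 was the 1 member with the core motif. The promoters of NOTCH1, NOTCH2, NOTCH3, JAG1, JAG2, DLL4 and ATOH1 had no match in this window, and those of DLL1 and HEY1 were not analysed here. Of the 9 other Notch target genes listed below, 5 had the core motif. A match describes the letters of the window and is not a measured site, and other forms of the site were not searched or marked.

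The signals below are the background-corrected intensities of the scanner software, in arbitrary units, and a level is the log2 of this signal minus the 75th percentile of its array. This percentile was 354 for the TCP array, 423 for CS and 337 for CSHA, so equal signals on different arrays are not equal levels. Levels of different probes cannot be set against each other. Between 48.6% and 51.1% of the probes were well above background, a flag of the scanner software, and the lowest signal with this flag was 24.1 for TCP, 21.1 for CS and 22.6 for CSHA. No spot was saturated. The error given with a difference is the SD expected from spots alone. It comes from the probe's own spots where it was printed 10 times, and otherwise from the 41 such probes nearest to it in level. For a probe printed 10 times it is the spread of single spots, which is wider than the error of the mean level given. It does not cover the spread between cultures. A difference was counted as called when it reached 2-fold, or 1 on the log2 scale.

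Of the 12 member probes, 7 were well above background on all 3 arrays. The probes of DLL4 and ATOH1 were well above background on none of them, and those of NOTCH3, DLL1 and HEY1 on some. Of the receptors, NOTCH1 was measured by a probe printed once and by another printed 10 times, both for the transcript NM_017617. The first (A_33_P3370424) had signals of 307 on TCP, 345 on CS and 393 on CSHA. Its level was 0.42 ± 0.09 higher on CSHA than on TCP on the log2 scale, and 0.09 ± 0.10 below TCP on CS, which is within the spread of spots. The probe printed 10 times (A_23_P60387) had signals of 111, 115 and 96.0 on TCP, CS and CSHA. Its level on CSHA differed from TCP by -0.14 ± 0.14, and on CS by -0.21 ± 0.15. The probes of NOTCH1 thus had opposite signs on CSHA. The value of the one with more spots was about as large as the spread of its single spots, which is wider than the error of its mean. Its 10 spots on TCP ran from -1.86 to -1.45 in level, and those on CSHA from -2.04 to -1.73, so the spots overlapped. On CS, 9 spots ran from -2.08 to -1.74, and 1 spot had been flagged as an outlier and was left out.

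NOTCH2, another receptor, also had probes that disagreed. The probe for NM_024408 (A_23_P200792) had signals of 4450 on TCP, 4449 on CS and 4792 on CSHA. Its level was 0.18 ± 0.06 higher on CSHA than on TCP and 0.26 ± 0.05 lower on CS than on TCP. The probe for NM_001200001 (A_33_P3258824) had signals of 1465, 1393 and 800, and its level was lower on both membranes, by -0.33 ± 0.06 on CS and -0.80 ± 0.07 on CSHA. On CSHA the probes thus differed in sign, each beyond its spread of spots, and on CS both were lower. The genome also holds NOTCH2NL genes, near copies of the start of NOTCH2, and which of these a probe reads was not tested. For NOTCH3 (A_33_P3313055) the signals were 28.9 on TCP, where it was not well above background, 30.6 on CS and 43.9 on CSHA. On the log2 scale its level was 0.68 ± 0.34 higher on CSHA than on TCP, and 0.85 ± 0.31 higher on CSHA than on CS. The first value was taken against its own dim level on TCP, so it is not a lower limit, though it is counted with the bounds below. Under other processing that value was as low as 0.23. This probe lay close to the background on every array.

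**Figure D1:**
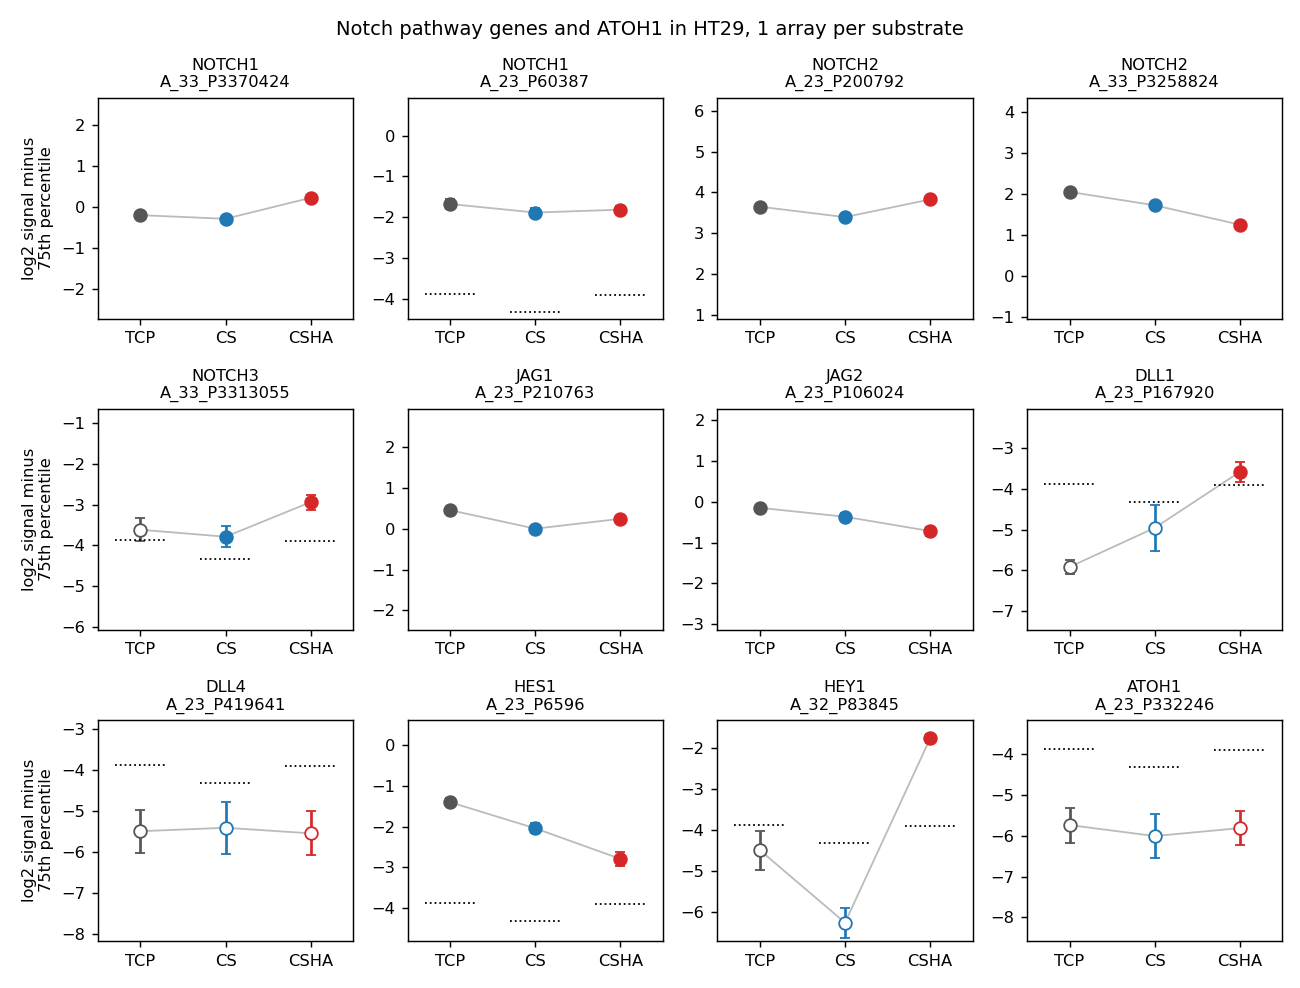
Level of each of the 12 member probes (log2 signal minus the array's 75th percentile, vertical axes of equal span but different position) on the TCP, CS and CSHA arrays, 1 array each. Filled points were well above background and open points were not, bars are the SD expected from spots alone, and dotted lines mark the lowest level well above background on that array. HES1 stepped down from TCP to CS to CSHA, HEY1 was well above background on CSHA alone, and ATOH1 and DLL4 lay below the dotted lines on every array.

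**Figure D2:**
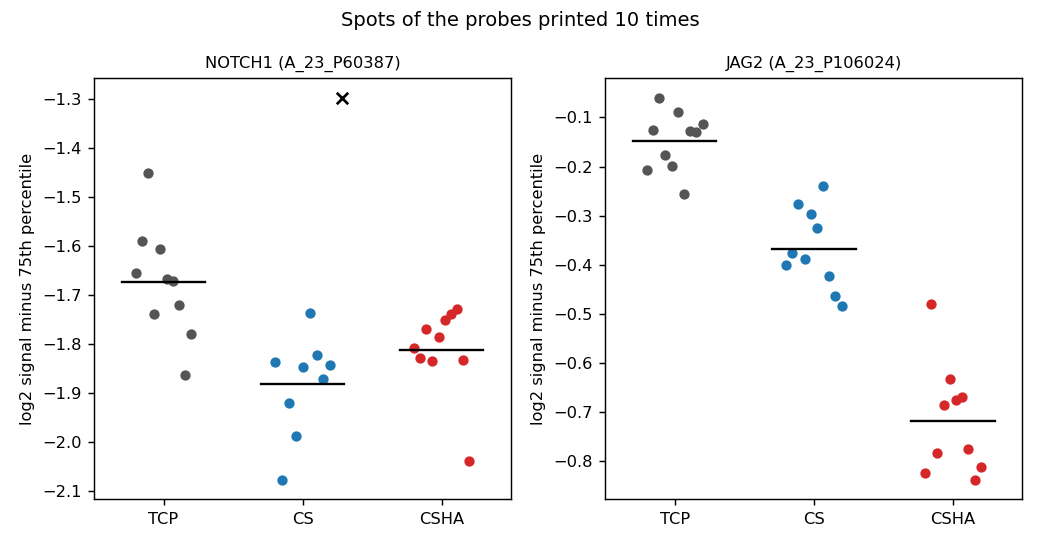
Level of each spot (log2 signal minus the array's 75th percentile) of the NOTCH1 and JAG2 probes that were printed 10 times, on 1 array per substrate, with the mean as a line and the spot flagged as an outlier as a cross. The spots of JAG2 on CSHA lay below all of its spots on TCP, while those of NOTCH1 overlapped between TCP and CSHA.

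Among the ligands, the Jagged genes were clearly measured and both had lower levels on the membranes than on TCP, apart from JAG1 on CSHA when the arrays were scaled to spike-in RNA (0.23). JAG1 (A_23_P210763) had signals of 484 on TCP, 423 on CS and 399 on CSHA. Its level differed from TCP by -0.45 ± 0.09 on CS and by -0.21 ± 0.09 on CSHA. JAG2 (A_23_P106024), printed 10 times, had mean signals of 319, 327 and 205. Its level differed from TCP by -0.22 ± 0.10 on CS and by -0.57 ± 0.13 on CSHA, or 1.48-fold. The 10 spots of JAG2 lay between -0.26 and -0.06 on TCP, between -0.48 and -0.24 on CS and between -0.84 and -0.48 on CSHA, so the TCP and CSHA spots did not overlap, while CS overlapped both narrowly. No Jagged difference reached 2-fold.

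The Delta-like ligands, which are the usual Notch ligands of the crypt, were at or below the limit of the arrays. DLL1 (A_23_P167920) had signals of 5.87 on TCP and 13.6 on CS, neither well above background, and 28.1 on CSHA, which was. It was at least 0.29 higher on CSHA than on TCP and at least 0.74 higher than on CS on the log2 scale, with errors from spots of 0.31 and 0.61. The first of these is within its error. DLL4 (A_23_P419641) had signals of 7.84, 9.93 and 7.21, none of them well above background, and no difference is given. In RNA of a whole culture, fewer cells that express a gene and less RNA per cell cannot be told apart, which holds for every gene here.

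The target genes HES1 and HEY1 were the members that reached 2-fold, in opposite directions. HES1 (A_23_P6596, NM_005524) had a signal of 134 ± 14.6 on TCP, 102 ± 11.4 on CS and 48.7 ± 7.18 on CSHA, where the error is that of the scanner software for a single spot. It was well above background on all arrays, and its signal was highest on TCP and lowest on CSHA. The level differed from TCP by -0.64 ± 0.16 on CS and by -1.39 ± 0.21 on CSHA, or 2.62-fold lower, and from CS by -0.75 ± 0.21 on CSHA. Each step was larger than the spread of spots. HEY1 (A_32_P83845, NM_001040708), a repressor of the related HEY family, had a signal of 15.8 ± 6.56 on TCP and 5.50 ± 5.51 on CS, neither well above background, and of 99.8 ± 11.6 on CSHA, where it was. It was at least 4.35-fold higher on CSHA than on TCP and at least 5.92-fold higher than on CS, which are bounds of 2.12 and 2.57 on the log2 scale.

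The calls of HES1 and HEY1 on CSHA against TCP depended on how the background was treated. With background correction by normexp on the raw median signal, HES1 on CSHA differed from TCP by -0.70 and HEY1 by 0.85. In the log2 values that the authors deposited, which hold the raw median signal with no background subtracted, the values were -0.77 and 0.92. None of these reached 2-fold, and the direction was the same. HEY1 on CSHA against CS kept its call, at 1.43 with normexp and 1.61 in the deposited values. Raw median signals on TCP, CS and CSHA were 191, 160 and 108 for HES1 and 78.5, 58 and 143 for HEY1, around a local background of 24 to 28. Scaling to spike-in RNA also took HES1 on CSHA below the threshold, at -0.95 against TCP, and left HEY1 at 2.56. The step of HES1 from CS to CSHA, -0.75 as reported, shrank to -0.26 with normexp, -0.26 in the deposited values and -0.37 with spike-in scaling.

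**Figure D3:**
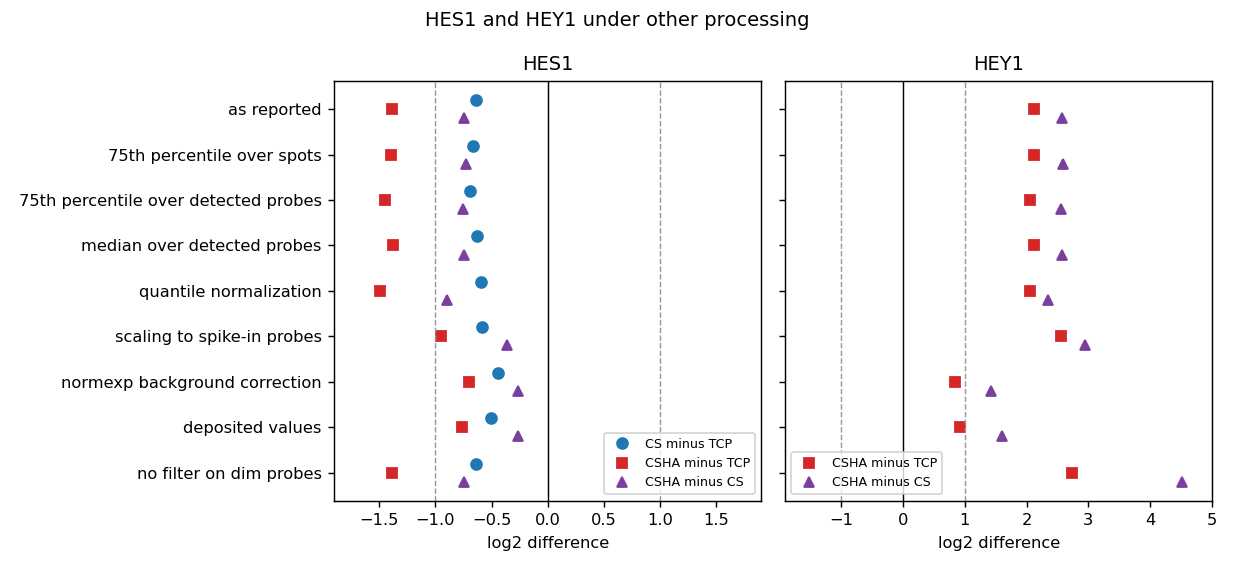
Log2 differences of HES1 and HEY1 between substrates, 1 array each, under the reported setting and 8 other ways of processing the same arrays. Dashed lines mark a 2-fold difference. HES1 was below 0 and HEY1 above 0 in every case shown, and CSHA against TCP was inside the dashed lines for both genes with normexp and with the deposited values.

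HES1 and HEY1 rest on a single spot per array. How far a single spot can stray was seen in the probes printed 10 times. On the CSHA array, 264 such probes were not well above background, and 70 of their 2640 spots, or 2.65%, were well above background and at least 2 log2 units over the median of their own probe. Of these, 9 spots, or 0.341%, were as bright as HEY1 was there. The software flagged 65 of the 70 by comparison with the other spots of the probe, and this comparison flagged 0 of the 49697 probes printed once, since they have no other spot. The HEY1 and HES1 spots carried no outlier flag on any array. Whether the HEY1 spot on CSHA is such a spot was not tested.

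ATOH1 (A_23_P332246, NM_005172), the factor that HES1 represses in the crypt, had signals of 6.62 ± 6.64 on TCP, 6.56 ± 5.86 on CS and 5.99 ± 6.01 on CSHA. Each signal was about as large as its own error, and none was well above background. The array therefore gave no level for ATOH1 on any substrate, and a difference was not detectable at this signal. Since ATOH1 was not measured, no genes with a like pattern were sought for it. For HES1, the genes nearest in both differences from TCP, among 13485 genes that every array measured, were EXOSC7 (-0.64 on CS and -1.39 on CSHA), NFRKB (-0.66 and -1.42) and MAOB (-0.67 and -1.42), at Euclidean distances of 0.01, 0.04 and 0.04. In all, 11 genes lay within 0.1 of HES1. These distances rest on 2 differences that share the TCP array.

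Taking the brighter probe for each gene, 5 of the 10 members could be compared between CS and TCP, and all 5 were lower on CS, with a median of -0.26 against 0.04 over all genes compared. None reached 2-fold. In this comparison 1.39% of 14467 genes were called higher on CS and 1.92% called lower. Between CSHA and TCP, 8 members had a value, of which 3 were bounds, and 5 were higher and 3 lower. The bounds were NOTCH3, DLL1 and HEY1, which were not measured on TCP and could only count as higher. Of the genes measured on both arrays, NOTCH1 and NOTCH2 were higher, and JAG1, JAG2 and HES1 lower. The median of the 8 was 0.23 with the bounds and -0.21 over the 5 genes measured on both arrays, against 0.13 over all genes. HEY1 was called higher and HES1 lower, where 3.04% of 14628 genes were called higher and 3.99% lower. Between CSHA and CS, 6 of 8 members were higher and 2 lower, with a median of 0.47, including 2 bounds, against 0.07 over all genes. These bounds, DLL1 and HEY1, could likewise only count as higher. HEY1 alone was called, where 2.27% of 14602 genes were called higher and 2.16% lower. The comparisons share arrays, since CSHA against CS uses both membranes again, and are not independent of each other.

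The rest of the pathway was covered by 7 lists with 78 genes, of which 76 had a probe. Between CS and TCP, 34 of 61 genes with a value were higher and 27 lower, with a median of 0.09, and 1 gene was called in each direction. Between CSHA and TCP, 42 were higher and 19 lower, with a median of 0.27, 5 genes were called higher and 2 lower. Between CSHA and CS, 40 of 60 were higher and 20 lower, with a median of 0.14, and 1 gene was called in each direction. These counts included 4, 5 and 3 bounds, each of which could only come out higher on the array that measured the gene. Over all genes, 56.8%, 61.7% and 58.5% were higher in these comparisons, bounds included. Of the pathway calls, FURIN, NEURL1, TLE4 and NOTCH4 on CSHA against TCP and DLK1 on CSHA against CS fell under 2-fold both with normexp (-0.56, 0.95, 0.64, -0.84 and 0.67) and in the deposited values (-0.63, 0.97, 0.65, -0.92 and 0.74). FOXA2 held under both (1.49 and 1.51). When probes of a gene were averaged, HES6 and LFNG on CSHA against TCP were at 0.68 each, and SPEN was at 0.45 on CS against TCP and -0.70 on CSHA against CS, all under 2-fold. LFNG was also just under 2-fold with normexp (0.996), and SPEN on CS against TCP with quantile normalization (0.98).

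**Figure D4:**
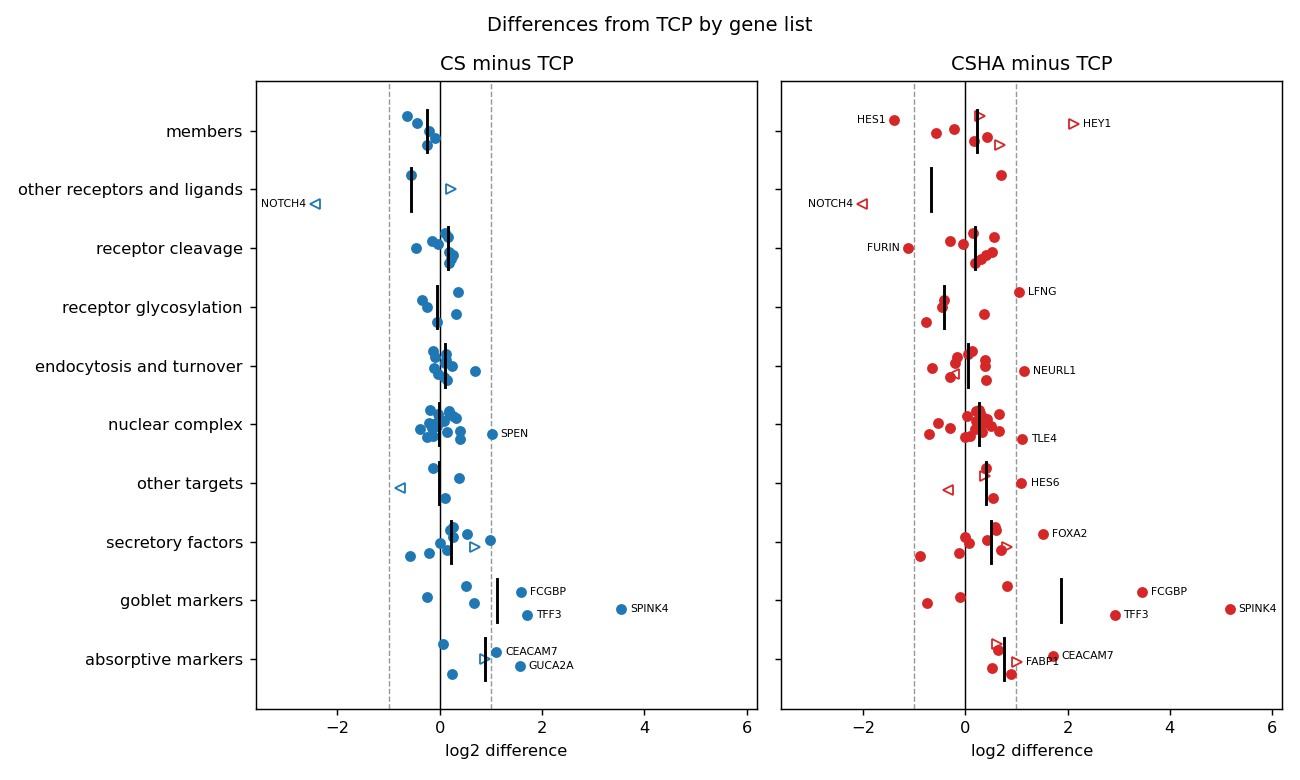
Log2 difference from TCP on CS (left) and CSHA (right), 1 array each, of the members and of genes in related lists, with the brighter probe for each gene. Open triangles are genes well above background on only 1 of the 2 arrays, counted as bounds. Black bars are list medians, and dashed lines mark a 2-fold difference, beyond which genes are named. Most pathway genes lay inside the dashed lines, while FCGBP, TFF3 and SPINK4 among the goblet cell markers lay beyond them on both membranes.

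Of the receptors and ligands outside the members, NOTCH4 was measured on TCP alone. It had a signal of 96.3 on TCP, and 18.0 on CS and 21.1 on CSHA, where it was not well above background. By this signal it was at least 5.44-fold lower on CS and at least 4.05-fold lower on CSHA. NOTCH4 rests on 1 spot per array. On the TCP array, 49 of 2730 spots of dim probes printed 10 times strayed as described above. Whether the NOTCH4 spot on TCP is such a spot was not tested. DLK1, a Delta-like protein without the domain that activates Notch, had signals of 52.8, 43.0 and 81.7 on TCP, CS and CSHA by its brighter probe, and was 2.38-fold higher on CSHA than on CS. DLL3 was not measured on any array.

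Among the 9 genes of receptor cleavage, 6 had higher and 3 lower levels on CSHA than on TCP, with a median of 0.20. The sheddase ADAM17 was highest of these, with signals of 879, 1166 and 1232 and a difference from TCP of 0.15 ± 0.07 on CS and 0.56 ± 0.07 on CSHA. APH1A of the gamma-secretase complex counted as lower on CSHA by its brighter probe (-0.31), while its other probe was higher (0.47). FURIN, the convertase that makes the first cut in the maturing receptor, had signals of 125, 108 and 55.3, and was 2.16-fold lower on CSHA than on TCP, at -1.11 ± 0.20. Of the 5 glycosylation genes, 2 were higher and 3 lower on CSHA. LFNG, a Fringe enzyme that adds sugars to the receptor and alters which ligand it answers, had signals of 4806, 7362 and 9525 by its brighter probe and was 2.08-fold higher on CSHA than on TCP. A second and dimmer LFNG probe differed by 0.31 ± 0.12. The related RFNG had signals of 380, 438 and 213, and differed from TCP by -0.76 ± 0.11 on CSHA.

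In the list of ligand and receptor endocytosis and turnover, 6 of 11 genes with a value were higher on CSHA than on TCP and 5 lower, with a median of 0.05. The lower genes included 1 bound, NEURL1B by its brighter probe, which could only be lower. Its other probe was measured on CSHA and not on TCP, and was at least 0.42 higher on CSHA. DTX2 counted as higher at 0.13, while its other probes were split (-0.42, -0.79 and a bound of 0.60). NEURL1, a ubiquitin ligase that acts on ligands, had signals of 468, 896 and 984, and was 2.2-fold higher on CSHA and 1.6-fold higher on CS. MIB2, another ubiquitin ligase of ligands, had signals of 683, 756 and 416, and differed from TCP by -0.65 ± 0.08 on CSHA. Of the 19 measured genes of the nuclear complex, 15 were higher on CSHA than on TCP by their brightest probe, with a median of 0.27, while 9 were higher and 10 lower on CS. Other probes of these higher genes did not all follow on CSHA. Those of CTBP1 (-0.56) and TLE1 (-0.37 and -0.62) were lower, those of CTBP2 were split (-0.80 and 0.29), and those of RBPJ, MAML3 and HDAC2 were higher. TLE4, a co-repressor that works with HES proteins, was 2.15-fold higher on CSHA, from signals of 81.3 on TCP, 128 on CS and 166 on CSHA. Another TLE4 probe for the same transcript was not well above background on any array. SPEN, a co-repressor bound by RBPJ, had probes that did not move together. The brighter one, printed once, had signals of 2658, 6401 and 1556 and differed from TCP by 1.01 on CS and -0.70 on CSHA. The other, printed 10 times, had signals of 705, 781 and 771 and differed by -0.11 ± 0.09 and 0.20 ± 0.08.

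Of the 9 other Notch targets listed, 5 could be compared between CSHA and TCP, 4 were higher and 1 was lower. Of the 5, 2 were bounds. HES5, measured on CSHA alone, could only count as higher, and HES7, measured on TCP alone, only as lower. HES6, a HES family member that opposes HES1, had signals of 4787, 7455 and 9777 by its brightest probe and was 2.14-fold higher on CSHA than on TCP. Its 3 dimmer probes were higher by 0.47 to 0.65. HES4, whose promoter is printed above, had signals of 7128, 7776 and 9047 and differed from TCP by -0.13 ± 0.06 on CS and 0.41 ± 0.06 on CSHA. NRARP, a target that feeds back on the Notch complex and was chosen after its values were seen, had signals of 5745, 7317 and 8022 and differed from TCP by 0.09 ± 0.06 and 0.55 ± 0.06. HES7 was measured on TCP alone, with a signal of 30.2, and was at least 0.35 lower on CSHA on the log2 scale. HES2, HEY2, HEYL and OLFM4 were not measured on any array.

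Of 17 transcription factors of secretory cells other than ATOH1, 16 had a probe and 10 could be compared between CSHA and TCP. Of these, 8 were higher, including 1 bound (RFX6) that could only be higher. The median of the 10 was 0.51. FOXA2, a forkhead factor of the gut epithelium, was called, with signals of 1044, 1808 and 2846 and a difference from TCP of 0.54 ± 0.06 on CS and 1.52 ± 0.07 on CSHA. SPDEF, a factor of goblet and Paneth cell maturation that acts after ATOH1, was lowest, with signals of 752, 599 and 388 and differences from TCP of -0.58 ± 0.08 and -0.88 ± 0.08. The goblet cell markers were measured for 6 of 10 genes on each array, and 3 of them, FCGBP, SPINK4 and TFF3, were called higher on both membranes. FCGBP, a protein of the mucus layer, had signals of 68.0, 243 and 711, and was 3-fold higher on CS and 11-fold higher on CSHA. With normexp it differed from TCP by 0.96 on CS, short of 2-fold, and by 2.55 on CSHA, and in the deposited values by 0.97 and 2.64. SPINK4 and TFF3 kept their calls against TCP under both. A second TFF3 probe differed from TCP by 1.65 on CS and 2.37 on CSHA. The dimmest TFF3 probe differed by 0.61 and 0.70, short of 2-fold. MUC2, the gel-forming mucin of goblet cells, had signals of 129, 129 and 115, by its brightest probe and differed from TCP by -0.25 ± 0.14 and -0.10 ± 0.14. A second MUC2 probe had signals of 84.9, 120 and 159 and differed by 0.24 ± 0.17 and 0.98 ± 0.16, so the MUC2 probes had opposite signs on both membranes. REP15, a Rab effector listed with the goblet genes, had signals of 314, 593 and 179 and was 2.65-fold lower on CSHA than on CS. CLCA1, ZG16, ITLN1 and FER1L6 were not measured on any array.

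Markers of the other intestinal fates were also read. All 3 Paneth markers with a probe, DEFA5, DEFA6 and PLA2G2A, were not well above background on any array, and of 6 enteroendocrine markers only GCG was, with signals of 29.5 to 38.2. Of 9 absorptive markers, 4 were measured on TCP and 6 on each membrane. Relative to TCP, all 5 that could be compared on CS were higher, and so were all 6 on CSHA. These include 1 bound on CS (FABP1) and 2 on CSHA (FABP1 and AQP8). Such genes were not measured on TCP and could only come out higher. CEACAM7 and GUCA2A were called on CS, and CEACAM7 and FABP1 on CSHA. Of these calls, CEACAM7 on CSHA alone held with normexp (1.51) and in the deposited values (1.53). CEACAM7 on CS fell to 0.97 and 0.95, GUCA2A on CS to 0.49 and 0.48, and FABP1 on CSHA to 0.57 and 0.54. GUCA2A, a guanylin peptide of the colon surface, had signals of 36.6, 129 and 50.1.

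The label of the cells was checked by marker lists. All 7 markers of colon epithelium were well above background on each array, among them CDX2, the intestinal homeobox factor, with signals of 371, 838 and 650, and KRT18. Stromal markers had summed signals of 91.7 on TCP, 47.3 on CS and 34.8 on CSHA, with SPARC and VIM just above the limit on TCP and none of 7 on the membranes, and COL1A1, COL1A2, COL3A1, DCN and LUM at background on every array. Of 5 endothelial markers, 4 were measured on each array at low signals that summed to between 180 and 210, with KDR at background. Of 4 immune markers, all were measured on TCP and CSHA, and 3 on CS, where CD3E was not well above background. Their summed signals were 1114 on TCP, 1729 on CS and 1934 on CSHA, mostly from CD14, at 834, 1408 and 1633. CD14 and CD68 were called higher on CSHA than on TCP and CD3E lower. None of these reached 2-fold with normexp (CD14 0.95, CD68 0.67, CD3E -0.57) or in the deposited values (0.96, 0.67 and -0.66). On CS, CD3E was also called lower than on TCP, at least 6.89-fold. This call held with normexp (-1.08) and in the deposited values (-1.24), and rests on 1 spot per array. PTPRC, the pan-leukocyte surface phosphatase, had signals of 39.2, 52.5 and 38.6 by the probe counted here, while another of its probes had 65.1 on TCP and was not well above background on the membranes, at least 3.68-fold lower on CS and 2.74-fold lower on CSHA. The part of these genes in the Notch pathway values was not tested.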

How the data were processed

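Each substrate had 1 array, hybridized in a single colour. The authors deposited, per array, the intensity of every spot as the scanner software gave it (Feature Extraction 10.7.3.1 per the file headers, while the methods name another version), with flags such as well above background and outlier, and a table of log2 values. These log2 values as the authors deposited them differ between arrays by the log2 difference of the raw median signal plus a constant at all 62976 spots, and their medians were 0.013 on TCP, -0.129 on CS and 0.0427 on CSHA. They had been centred per spot, so they hold differences and not levels. The sample labels name another kit for the RNA and the labelling than the methods do.

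Processed signals under 1 were set to 1 (0 spots), spots of a probe were averaged on the log2 scale without outlier-flagged spots, and the 75th percentile of each array over probes was subtracted. This is the shift that the methods state for the raw signal, and it was applied here to the background-corrected signal. Accessions were matched to symbols through RefSeq genes of GRCh38.p14, for 30004 of 50599 probes. Promoter windows are of that build, while the array headers use an older one. The brightest probe stood for a gene. Where only 1 of 2 arrays had a probe well above background, the difference is called a bound. It was taken against the lowest level well above background on the dim array or the dim probe's own level, whichever was higher. Against the dim probe's own level, as for NOTCH3 on CSHA against TCP, it is a plain difference and not a limit. With 1 array per group, at least 2-fold was counted and nothing was tested.

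The members and gene lists were chosen with earlier results of these data known. Genes named are all members, each listed gene called in a comparison, the highest and lowest of each list on CSHA against TCP, and the 3 genes nearest to HES1. Not all of them are described. A further immune marker was listed and is not reported or counted here. Alternatives were normexp (offset 50) and quantile normalization, other shifts, spike-in scaling, the deposited values, other filters and thresholds, and the mean over probes. The calculation was tested on simulated arrays. The analysis was run in Python 3.11.15 (pandas 2.3.3, numpy 2.4.6), with normexp from limma 3.58.1 in R 4.3.3.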

Additional observations from a re-analysis of the deposited data

Results flagged for a closer look

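NOTCH2, by its brighter probe (A_23_P200792), differed from TCP by -0.26 on CS and by 0.18 on CSHA on the log2 scale, opposite signs that each exceeded the spread among spots. The other NOTCH2 probe (A_33_P3258824) was lower on both membranes and differed from TCP by -0.33 on CS and -0.80 on CSHA. The opposite signs thus hold for the brighter probe alone. NOTCH2 was singled out for the opposite signs of that probe, and the difference between the membranes was not tested, since each had 1 array.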

How the results depend on the processing

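No paired analysis was possible because each group had 1 array. Of 205 recomputed member differences, 168 moved by no more than the spread of spots, 33 moved further with the same sign and 4 changed sign. Those 4 were JAG1 on CSHA against TCP (0.23) and JAG2 on CSHA against CS (0.0326) under spike-in scaling, and NOTCH2 on CSHA with the mean over its probes, at -0.31 against TCP and -0.021 against CS. The 168 include values that could not move. The filters leave a probe measured on both arrays unchanged, and the mean over probes leaves a gene with 1 probe unchanged. The 168 are therefore not a measure of robustness. The members' median on CSHA against TCP changed sign with the mean over probes (-0.0337) and when both arrays had to be well above background (-0.21). Among other named genes, spike-in scaling turned KRT18 on CSHA against TCP (0.38), SPDEF on CSHA against CS (0.0821) and TEK on CSHA against CS (0.0536), TEK also turned with normexp (0.0177) and the deposited values (0.00373), and the mean over probes turned KRT18 on CSHA against CS (-0.0624). Scaling to 7 spike-in probes shifted the median of all genes to 0.57 on CSHA against TCP and 0.46 against CS, and the counts of genes called there to 1812 higher and 177 lower against 445 and 583, and to 1009 and 117 against 332 and 316. The all-gene counts called on CSHA against TCP were 158 and 293 with normexp, 184 and 328 with the deposited values, 1130 and 1190 without a filter on dim probes and 268 and 448 with both arrays measured. On CS against TCP, in the order higher and lower, they were 59 and 104, 68 and 137, 635 and 1152, and 87 and 98 under the same settings, against 201 and 278. On CSHA against CS they were 105 and 149, 155 and 146, 1111 and 676, and 132 and 210.

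Counts of members called moved as follows. Higher on CSHA against TCP, 0 with normexp, the deposited values or both arrays measured, and 2 with spike-in scaling, no filter or 1.5-fold. Higher on CSHA against CS, there were 3 with spike-in scaling or 1.5-fold, 2 with no filter and 0 with both arrays measured. Lower on CSHA against TCP, there were 0 with normexp, spike-in scaling, the deposited values or 3-fold. Lower on CS against TCP, there was 1 with no filter or 1.5-fold, and lower on CSHA against CS, 1 with 1.5-fold. Of the other pathway genes on CS against TCP, 0 were called higher with quantile normalization, the percentile over detected probes or over spots, the mean over probes or 3-fold, 2 with spike-in scaling, and 4 with no filter or 1.5-fold. Lower there were 2 with no filter or 1.5-fold and 0 with both arrays measured. On CSHA against TCP, 2 were higher with normexp, 3 with the deposited values or the mean over probes, 12 with spike-in scaling or 1.5-fold and 0 with 3-fold, and 0 were lower with normexp or the deposited values, 1 with spike-in scaling, both arrays measured or 3-fold, and 6 with 1.5-fold. On CSHA against CS, 0 were higher with normexp, the deposited values or 3-fold, 2 with the percentile over spots, 3 with no filter, 7 with spike-in scaling and 8 with 1.5-fold, and 0 were lower with the mean over probes and 3 with 1.5-fold. Their median moved to 0.73 on CSHA against TCP and 0.52 against CS with spike-in scaling, and to 0.24 against CS with no filter. Of 31 calls of named genes other than members, 15 fell under 2-fold with normexp and 14 with the deposited values, and 19 under at least 1 alternative at the same threshold. The percentile over spots was added after seeing the data. The cause of these changes was not tested. The number of arrays limits the precision throughout, and DLL1, DLL4, NOTCH3, HEY1 and ATOH1 were at or near the background on at least 1 array.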
